A study of Mus musculus with 7 samples.

Results

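Regulatory T cell identity genes are described here in CD4+ splenocytes of mice, as 10 genes chosen by symbol from the 19589 in the deposited table. They are Foxp3, Ikzf2, Ikzf4, Nrp1, Lrrc32, Gpr83, Klrg1, Itgae, Capg and Ebi3, and all 10 were found. RNA was sequenced from CD4+ cells sorted by flow cytometry from C57BL/6 spleen, in 3 libraries labelled RT (RT1 to RT3) and 4 labelled WT (WT1 to WT4). By the series title and design the RT mice lack Tet2, an enzyme of DNA demethylation, and carry G17V RHOA, a mutant small GTPase known from angioimmunoblastic T cell lymphoma. The WT mice are wild type. Each library is 1 mouse by the design text. No source used here gives the construct and promoter of G17V RHOA, the Tet2 allele, or the age of the mice.

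Regulatory T cells are CD4+ cells that restrain other immune cells and keep tolerance to self. Their lineage depends on FOXP3, an X-linked forkhead transcription factor that works in complexes with other factors, among them the Ikaros family members Helios (Ikzf2) and Eos (Ikzf4). The remaining genes encode surface receptors, an integrin chain, an actin-capping protein and a cytokine chain that mouse regulatory T cells carry at higher levels than other CD4+ cells, but none of these is made by regulatory T cells alone. In sorted CD4+ cells as a whole, a larger share of regulatory T cells and more RNA per regulatory T cell cannot be told apart.

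Depth differed greatly between libraries. Steps between low values gave totals of 21800352 reads in RT1, 18566233 in WT1 and 20033254 in WT2, called deep below. They were 105763 in RT2, 121659 in RT3, 118950 in WT3 and 121617 in WT4, called shallow. Levels are given as deposited RPKM (reads per kilobase of gene and per 1000000 reads) with the whole reads behind them, or as RPM, reads per 1000000 recovered reads in genes. Recovered reads were 49.2% to 52.7% of the total in deep and 88.1% to 91.6% in shallow libraries. RPKM summed to 133044 to 152578 in deep and 326187 to 366023 in shallow libraries. RPKM is thus not on 1 scale across the library sets, and the planned test below has no term for this. Intervals are exact 95% Poisson intervals, and they and the floors cover counting error only. A count of 0 allows up to 26.9 to 31.1 RPM in the shallow libraries, taking 3 reads as the limit. Tet2 stood at 5.03, 0.803 and 0 RPKM for RT1 to RT3, compared with 6.32, 4.68, 2.86 and 2.79 RPKM in WT1 to WT4. Its total does not show whether a part is deleted. In the shallow libraries it had 1 and 0 reads in RT2 and RT3 and 4 each in WT3 and WT4. The counting intervals of these libraries overlapped. Rhoa, whose mutant and normal copies a gene total does not separate, was at 57.8, 187 and 174 RPKM for RT1 to RT3 and 64.0, 76.3, 181 and 183 RPKM for WT1 to WT4. The defining CD4+ T cell genes Cd3e and Cd4 were detected in every library, at 575 to 830 RPM and 945 to 2036 RPM in RT, against 306 to 599 RPM and 989 to 1174 RPM in WT. Marker genes of other cell types differed between libraries. Genes of B cells summed to 156 to 362 RPM in RT, against 205 and 258 RPM in WT2 and WT1 and 1461 and 1587 RPM in WT3 and WT4. Genes of monocytes, macrophages and neutrophils summed to 2243 RPM in RT1 and to 259 and 350 RPM in RT2 and RT3. In WT they summed to 749 and 505 RPM in WT1 and WT2 and to 1203 and 1132 RPM in WT3 and WT4. Plasma cell genes summed to 311 to 590 RPM in RT and 150 to 1810 RPM in WT, and platelet genes to at most 18.1 RPM in RT and 1.86 RPM in WT. Counts of called marker genes are from the recovered-read fit with the stricter filter described below. Of 10 CD4 T cell genes tested 1 (Cd5) was lower in RT, of 8 B cell genes 1 (Fcer2a), and of 5 dendritic cell genes 2 (Flt3 and Siglech), and 0 were higher, where 7.90% of 5871 genes were lower. The Fcer2a call was lost in the fit over all libraries (limma voom adjusted p = 0.0560). None of 4 plasma cell genes and 1 natural killer cell gene was called, and CD8 T cell and platelet genes had too few reads to be tested.

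The promoter windows of 4 genes are shown because Foxp3 defines the lineage and Capg, Nrp1 and Gpr83 were the members with a called difference in a fit described below. Each window runs from 250 bases before to 50 after a gene's start in RefSeq (build GRCm38.p6, the assembly that mm10 names), on the plus strand. Capitals mark a match to a TATA motif (TATAAA) or a GC box (GGGCGG) on either strand.
Foxp3, chrX:7579426-7579725: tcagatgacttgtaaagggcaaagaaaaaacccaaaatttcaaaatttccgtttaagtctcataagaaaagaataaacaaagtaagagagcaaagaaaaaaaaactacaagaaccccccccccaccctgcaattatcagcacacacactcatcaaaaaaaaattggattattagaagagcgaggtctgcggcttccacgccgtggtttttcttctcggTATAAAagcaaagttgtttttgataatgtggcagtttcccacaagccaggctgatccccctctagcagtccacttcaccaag
Capg, chr6:72549397-72549696: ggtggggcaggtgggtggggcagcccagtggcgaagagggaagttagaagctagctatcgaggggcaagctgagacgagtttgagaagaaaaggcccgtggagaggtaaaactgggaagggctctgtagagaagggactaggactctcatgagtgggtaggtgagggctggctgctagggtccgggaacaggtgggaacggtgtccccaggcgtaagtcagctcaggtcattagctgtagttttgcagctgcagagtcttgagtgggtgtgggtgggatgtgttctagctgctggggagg
Nrp1, chr8:128358823-128359122: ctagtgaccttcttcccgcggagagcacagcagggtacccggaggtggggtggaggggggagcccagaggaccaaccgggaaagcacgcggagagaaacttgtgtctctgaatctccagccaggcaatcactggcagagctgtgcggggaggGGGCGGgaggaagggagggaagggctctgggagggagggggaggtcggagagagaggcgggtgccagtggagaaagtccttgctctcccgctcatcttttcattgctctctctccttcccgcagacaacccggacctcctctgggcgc
Gpr83, chr9:14859960-14860259: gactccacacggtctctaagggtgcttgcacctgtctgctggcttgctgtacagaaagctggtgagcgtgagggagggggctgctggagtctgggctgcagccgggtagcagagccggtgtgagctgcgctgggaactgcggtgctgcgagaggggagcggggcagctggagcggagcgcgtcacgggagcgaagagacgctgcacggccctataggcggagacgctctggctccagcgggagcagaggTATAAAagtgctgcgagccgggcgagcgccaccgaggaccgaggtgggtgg
TATAAA was found in the Foxp3 and Gpr83 windows and in 13.6% of all 32851 promoter windows of the same length, and GGGCGG in the Nrp1 window and in 35.7% of all windows. Neither motif was found in the Capg window. The forkhead motif TGTTTAC (3.65% of all windows), the RUNX motif TGTGGT (16.8%), the NFAT core GGAAAA (23.4%) and the STAT motif TTCNNNGAA (8.30%) were also searched for on both strands and were in none of the 4 windows, except that the last 2 overlap in a second RefSeq start window of Foxp3, which is not shown. These matches describe letters only.

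In the planned test, limma on log2(RPKM + 1) with genotype as the only term, 0 of the 10 genes passed, where 0.0521% of 9605 genes passed in either direction. At an unadjusted p under 0.05 the count was also 0. The log2 fold change was positive for 6 of the 10, and the median was 0.35, against 0.00 over all genes tested. Next, limma voom was run on the recovered reads of all genes with at least 10, modelling both genotype and library set. Here Capg and Nrp1 were higher in RT, Gpr83 was lower, and 7 genes were not called. In that fit 9.29% of 13183 genes were called, 5.84% higher and 3.45% lower, against 3 of these 10. The median of the 10 was 0.27, against 0.08 over all genes. Only 5 of the 10 also had the 10 reads over the shallow libraries that a stricter fit required. Of these, Capg and Nrp1 were higher and 3 were not called, where 17.0% of 5871 genes were called. Without RT1, the only deep RT library, both recovered-read fits called 0 of the 10 genes and 0 genes in all. Values given below for recovered reads are from the stricter fit for these 5 genes (Foxp3, Ikzf2, Nrp1, Itgae and Capg) and from the fit over 13183 genes for the other 5. The deep libraries alone set RT1 against WT1 and WT2. There the spread comes from the 2 WT libraries only, RT1 is assumed to vary like them, and the fold changes below are given as values. Of 5871 genes 2.95% passed in that fit.

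**Figure D1:**
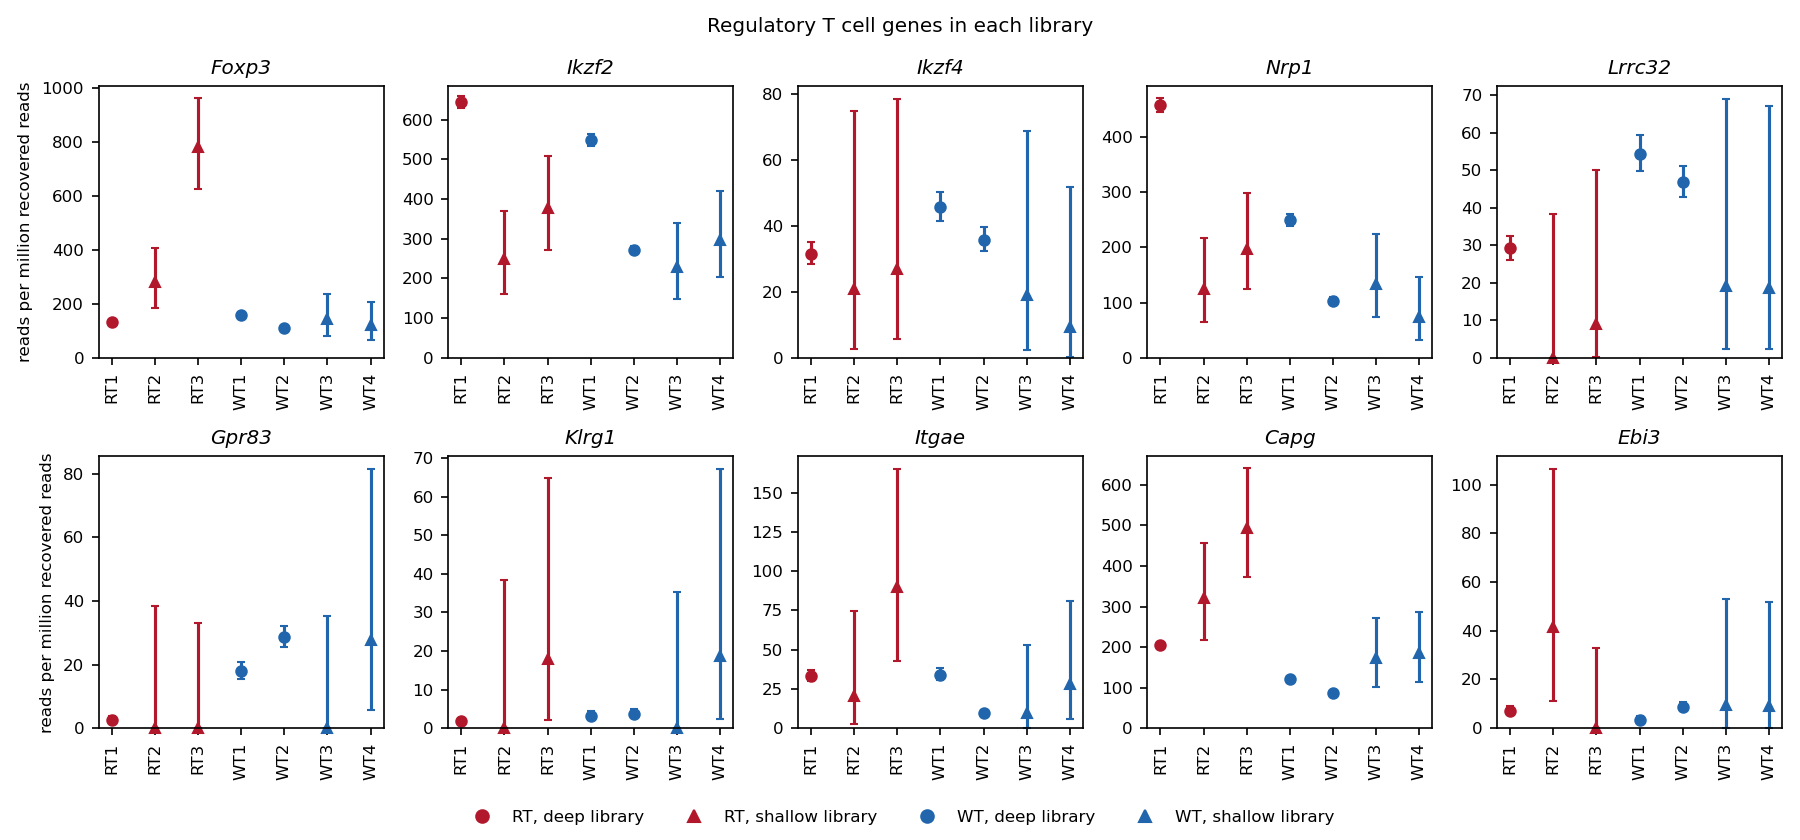
Level of each of the 10 genes in each library, in reads per 1000000 recovered reads (RPM), with exact 95% Poisson intervals (counting error only). Circles are deep and triangles shallow libraries. Foxp3 was highest in RT3 at 780 RPM, and Capg lay above every WT library in all 3 RT libraries.

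Foxp3 itself (chromosome X, 7573644 to 7595245, plus strand, mm10) varied more among the RT libraries than among the WT libraries. Its level was 17.4, 64.0 and 179 RPKM for RT1 to RT3, compared with 19.4, 14.3, 31.6 and 26.8 RPKM in WT1 to WT4. These values rest on 1515, 27 and 87 reads in RT1 to RT3 and on 1439, 1146, 15 and 13 reads in WT1 to WT4. Scaled to recovered reads, Foxp3 was at 134, 280 and 780 RPM in RT1 to RT3, against 158, 108, 143 and 121 RPM in WT1 to WT4. The 4 WT libraries were close on this scale, RT1 lay inside their range, and RT2 and RT3 lay above it, so the groups overlapped. The means were 398 ± 339 RPM in RT and 132 ± 22.0 RPM in WT (SD, n = 3 and 4). The counting intervals were 185 to 408 RPM for RT2 and 625 to 963 RPM for RT3, and 80.2 to 236 RPM for WT3 and 64.2 to 206 RPM for WT4. Only the interval of RT3 lay wholly above those of the shallow WT libraries.

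In the planned test Foxp3 had a log2 fold change of 1.38 ± 0.70 (SE, limma adjusted p = 0.635). In the recovered reads it was 0.33 ± 0.35 in the stricter fit (limma voom adjusted p = 0.559). Without RT3 the values were 0.58 in the planned test and 0.13 in the recovered reads, neither of them called. In the deep libraries alone the log2 fold change was 0.04 ± 0.28. It was 1.83 ± 0.42 in the shallow libraries alone and passed (limma voom adjusted p = 0.00566). In that fit 5.40% of 5871 genes passed in either direction. Cd3e and Cd4 were also called higher there, at 1.08 ± 0.28 and 0.75 ± 0.20 (limma voom adjusted p = 0.0147 and 0.0221). The difference between the library sets for Foxp3, tested as an interaction, was 1.80 ± 0.84 and did not pass (limma voom adjusted p = 0.619). The sets also hold different mice, and depth and mouse cannot be told apart. Xist, the RNA of the inactive X chromosome, had 33298, 69 and 1 reads in RT1 to RT3 and 20969, 12826, 0 and 0 reads in WT1 to WT4, and Y-linked genes had 30 reads in RT3 and 21 and 19 in WT3 and WT4. Y-linked reads were 1 and 0 in RT1 and RT2 and 0 in WT1 and WT2. RT3, with the highest level of the X-linked Foxp3, was thus of the same sex by these genes as WT3 and WT4. RT2, also above the WT range in RPM, was of the other sex, like RT1, WT1 and WT2. Among the WT libraries sex split as depth did, so they cannot be told apart there. The part of sex in the Foxp3 values was not tested. Exons of Foxp3 share 590 bases with Ccdc22 and 266 with Ppp1r3f on the other strand, and no source used here says that counting used strand, so reads there cannot be assigned.

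Set against Cd4, which encodes the co-receptor used for the sort, Foxp3 was above the WT range in RT3 alone of the 3 RT libraries. There were 14.1, 15.1 and 38.3 Foxp3 reads per 100 Cd4 reads in RT1 to RT3, against 15.1, 10.96, 12.2 and 10.7 in WT1 to WT4. RT3 had an exact 95% binomial interval of 29.6 to 49.3, above every WT interval. RT2 lay just under WT1. Cd4 itself was higher in RT2 and RT3, at 1857 and 2036 RPM, than in RT1 and the WT libraries, at 945 to 1174 RPM. Against Cd3e, a chain of the T cell receptor complex, RT3 had as many Foxp3 as Cd3e reads (87 each). RT1 and RT2 had 23.2 and 33.8 Foxp3 reads per 100 Cd3e reads, against 26.3, 18.9, 30.6 and 39.4 in WT1 to WT4. By both measures RT1 and RT2 were inside the WT range and RT3 was outside it. These ratios were chosen after the values were seen.

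**Figure D2:**
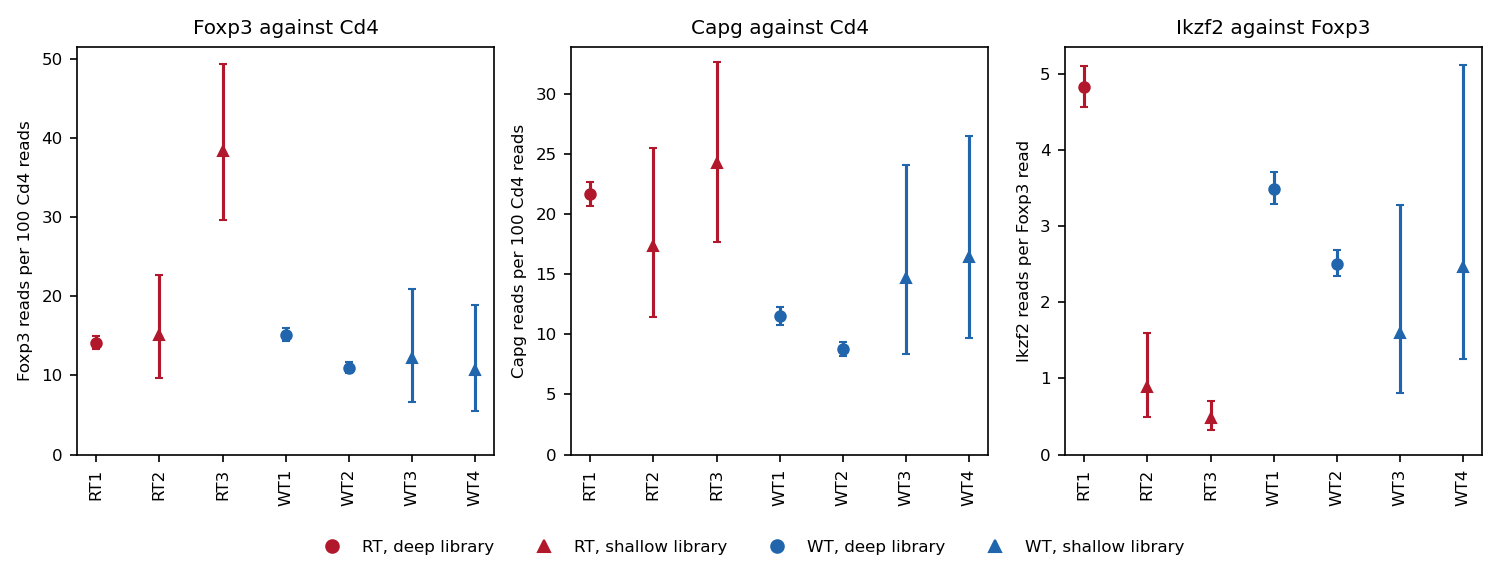
Foxp3 and Capg reads per 100 Cd4 reads, and Ikzf2 reads per Foxp3 read, in each library, with exact 95% binomial intervals (counting error only). RT3 stood apart for Foxp3 at 38.3, and Ikzf2 per Foxp3 read ran from 0.483 in RT3 to 4.83 in RT1.

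Ikzf2 (chromosome 1, 69531214 to 69687245, minus strand) encodes Helios, a zinc finger factor that stabilises the regulatory T cell state. It measured 28.9, 19.5 and 29.7 RPKM for RT1 to RT3, compared with 23.3, 12.3, 17.4 and 22.7 RPKM in WT1 to WT4. RT1 and RT3 lay above every WT library and RT2 lay among them. On the RPM scale RT1 (645 RPM) alone exceeded the highest WT library (WT1, 550 RPM), and RT2 and RT3 were at 249 and 377 RPM. The planned log2 fold change was 0.46 ± 0.40 (SE, limma adjusted p = 0.791) and the value in recovered reads 0.66 ± 0.31 (limma voom adjusted p = 0.184). Without WT1 it was called, at 0.97 ± 0.23 (limma voom adjusted p = 0.0231), while without WT2 it was 0.23 ± 0.12 (limma voom adjusted p = 0.211) and without RT1 0.24 ± 0.90, neither of them called. Ikzf2 did not follow Foxp3 from library to library. There were 4.83, 0.889 and 0.483 Ikzf2 reads per Foxp3 read in RT1 to RT3, against 3.49, 2.50, 1.60 and 2.46 in WT1 to WT4. RT1 lay above and RT2 and RT3 lay below all 4 WT libraries.

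Ikzf4 (chromosome 10, 128630843 to 128645991, minus strand) encodes Eos, a FOXP3 partner in gene repression. It was low in every library, at 2.74, 3.15 and 4.11 RPKM for RT1 to RT3, compared with 3.76, 3.15, 2.80 and 1.37 RPKM in WT1 to WT4, and rested on 1 to 3 reads in each shallow library. The groups overlapped. The log2 fold change was 0.23 ± 0.46 in the planned test (limma adjusted p = 0.920) and -0.29 ± 0.24 in the recovered reads (limma voom adjusted p = 0.468), so its direction depended on the fit.

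Nrp1 (chromosome 8, 128358604 to 128503363, plus strand) encodes neuropilin-1, a semaphorin and VEGF receptor that marks thymus-derived regulatory T cells in mice and is also carried by dendritic cells and macrophages. It stood at 24.4, 11.6 and 18.5 RPKM for RT1 to RT3, compared with 12.6, 5.55, 12.03 and 6.72 RPKM in WT1 to WT4. RT1 and RT3 were above every WT library and RT2 was not. In RPM only RT1 (458 RPM) exceeded WT1 (250 RPM), while RT2 and RT3 were at 125 and 197 RPM and WT2 to WT4 at 74.2 to 134 RPM. The planned log2 fold change was 0.92 ± 0.45 (SE, limma adjusted p = 0.618). In the recovered reads Nrp1 rose by 1.46 ± 0.39 in log2 units (adjusted p = 0.0364, limma voom). This call was lost without RT1 (0.66 ± 1.39), and also without RT2, RT3, WT3 or WT4, with adjusted p from 0.0582 to 0.0828 in those 4 fits, while it was kept without WT1 at 1.96 and without WT2 at 0.86. In the deep libraries alone it was 1.54 ± 0.49, and in the shallow ones it was 0.65 ± 0.44 and was not called. RT1, the library with the most Nrp1, also had the highest sum of monocyte, macrophage and neutrophil genes (2243 RPM), and Adgre1 (F4/80) and Cd68, macrophage genes, were among 5 tested genes of that list and were called higher in the stricter fit (log2 fold changes 2.11 and 1.78), with Ly6c2 lower. Both were negative in the planned test (-1.35 and -2.85) and in the shallow libraries alone (-3.29 and -4.12). Neither was called in the fit over 13183 genes. In that fit 3 of 9 tested genes of the list, Csf1r, Fcgr3 and S100a9, were called higher and Ly6c2 lower. Over all genes tested there, 5.84% were higher and 3.45% lower. Adgre1 had 221 RPM in RT1, 10.4 in RT2 and 0 in RT3, against 56.0, 36.6, 57.3 and 102 RPM in WT1 to WT4, and Cd68 was at 0 in RT2 and RT3. The part of these cells in the Nrp1 result was not tested. RT2 and RT3 had the lowest such sums, at 259 and 350 RPM. Their Nrp1 lay within the WT range in RPM, while in RPKM RT3 was above every WT library.

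Lrrc32 (chromosome 7, 98489283 to 98502181, plus strand) encodes GARP, which holds latent TGF-beta on the surface of activated regulatory T cells. Its level was 3.23, 0 and 1.75 RPKM for RT1 to RT3, compared with 5.71, 5.26, 3.59 and 3.51 RPKM in WT1 to WT4. Every RT library lay below every WT library on this scale, as did 4.57% of the 9605 genes tested (4.47% lay above), but the shallow values rest on 0 to 2 reads each. In RPM the groups overlapped, with RT1 at 29.1 RPM above WT3 and WT4 at 19.1 and 18.6 RPM. The log2 fold change was -1.26 ± 0.57 in the planned test (limma adjusted p = 0.583) and -0.82 ± 0.24 in the recovered reads (limma voom adjusted p = 0.0711). Without WT2 it was called, at -0.94 ± 0.18 (limma voom adjusted p = 0.0386).

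Gpr83 (chromosome 9, 14860210 to 14870789, plus strand), a G protein-coupled receptor enriched in mouse regulatory T cells, was the 1 member called lower in RT. It measured 0.270 RPKM in RT1 and was listed at 0 in RT2 and RT3, against 1.73, 2.98, 0 and 4.84 RPKM in WT1 to WT4. The reads were 30, 0 and 0 in RT1 to RT3, against 164, 304, 0 and 3 in WT1 to WT4. In the deep libraries this was 2.65 RPM in RT1 (interval 1.79 to 3.78), against 18.0 and 28.8 RPM in WT1 and WT2 (15.3 to 20.9 and 25.6 to 32.2). In the shallow libraries a difference of this size was not detectable, since a count of 0 allows up to 31.1 RPM in RT2 and 26.9 RPM in RT3. The planned log2 fold change was -1.38 ± 0.65 (SE, limma adjusted p = 0.607). In the recovered reads of all genes Gpr83 fell by 2.94 ± 0.52 in log2 units (adjusted p = 0.0152, limma voom). Without RT1 the value was -1.39 ± 2.29 and was not called.

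Klrg1 (chromosome 6, 122270596 to 122282882, minus strand), an inhibitory lectin-like receptor of highly differentiated T cells and natural killer cells, was close to the limit of detection. It had 20, 0 and 2 reads in RT1 to RT3, against 29, 39, 0 and 2 in WT1 to WT4. The 2 reads in RT3 and the 2 in WT4 were each worth 11.6 RPKM, while the deep libraries ran from 0.649 RPKM in RT1 to 1.10 and 1.38 RPKM in WT1 and WT2. The log2 fold change was -0.04 ± 1.04 in the planned test (limma adjusted p = 0.993). Natural killer cell genes summed to 38.5 to 187 RPM in RT and 52.2 to 95.5 RPM in WT, and 2 of the 8 were at 0 in every library. In RT2 and RT3 the whole sum was Eomes, at 187 and 80.7 RPM.

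Itgae (chromosome 11, 73090583 to 73147446, plus strand) encodes the alpha E integrin chain (CD103), which binds E-cadherin on epithelium and is carried by subsets of regulatory T, CD8+ T and dendritic cells. It stood at 3.795, 4.13 and 17.9 RPKM for RT1 to RT3, compared with 3.67, 1.08, 1.84 and 5.38 RPKM in WT1 to WT4. RT3, the library with the most Foxp3, was again the highest, on 10 reads, and RT1 and RT2 lay inside the WT range. WT1 and WT2, both deep, themselves differed, with 312 and 99 reads. The log2 fold change was 1.09 ± 0.64 in the planned test (limma adjusted p = 0.675) and 0.94 ± 0.54 in the recovered reads (limma voom adjusted p = 0.277). It was 1.79 and called without WT1, and 0.04 without WT2. Dendritic cell genes summed to 108 to 137 RPM in RT and 98.7 to 554 RPM in WT, and the CD8 genes Cd8a and Cd8b1 to at most 8.97 RPM in RT and 27.8 RPM in WT.

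Capg (chromosome 6, 72544391 to 72562983, plus strand) encodes an actin-capping protein of the gelsolin family that is abundant in regulatory T cells and in macrophages. It had the smallest adjusted p of the 5 members in the stricter fit. Its level was 42.1, 116 and 179 RPKM for RT1 to RT3, compared with 23.3, 18.1, 59.8 and 65.0 RPKM in WT1 to WT4. The reads were 2319, 31 and 55 in RT1 to RT3, against 1096, 915, 18 and 20 in WT1 to WT4. Within each library set every RT library was above every WT library. In RPM the values were 205, 322 and 493 in RT1 to RT3, against 120, 86.6, 172 and 186 in WT1 to WT4, and the groups did not overlap. Of the 13183 genes with at least 10 reads, 3.57% lay wholly above in RT and 3.49% wholly below. The means were 340 ± 145 RPM in RT and 141 ± 46.0 RPM in WT (SD, n = 3 and 4).

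The planned log2 fold change of Capg was 1.39 ± 0.65 (SE, limma adjusted p = 0.605). In the recovered reads Capg rose by 1.03 ± 0.19 in log2 units (adjusted p = 0.00996, limma voom). The value was 1.01 ± 0.26 in the deep libraries alone and 1.15 ± 0.34 in the shallow ones (limma voom adjusted p = 0.0414). In the same shallow fit Cd3e and Cd4 were also called higher, at 1.08 ± 0.28 and 0.75 ± 0.20. Without RT1 the Capg value was 1.15 ± 0.49 and was not called. Against Cd4, there were 21.6, 17.3 and 24.2 Capg reads per 100 Cd4 reads in RT1 to RT3, against 11.5, 8.75, 14.6 and 16.4 in WT1 to WT4, again without overlap, although the intervals of the shallow libraries overlapped. RT1 had the highest sum of monocyte, macrophage and neutrophil genes and RT2 and RT3 the lowest, while Capg per recovered read was above every WT library in all 3. The part of these cells in the RT1 value was not tested.

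Ebi3 (chromosome 17, 55952640 to 55957022, plus strand) encodes a chain shared by heterodimeric cytokines of the interleukin 12 family, made by regulatory T cells, dendritic cells and B-lineage cells. It measured 3.18, 32.3 and 0 RPKM for RT1 to RT3, compared with 1.47, 3.97, 7.19 and 7.03 RPKM in WT1 to WT4. The highest and the lowest values were both from RT libraries, with 4 reads in RT2 and 0 in RT3, and WT3 and WT4 had 1 read each. The log2 fold change was -0.04 ± 1.04 in the planned test (limma adjusted p = 0.993) and 0.28 ± 0.56 in the recovered reads (limma voom adjusted p = 0.763).

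**Figure D3:**
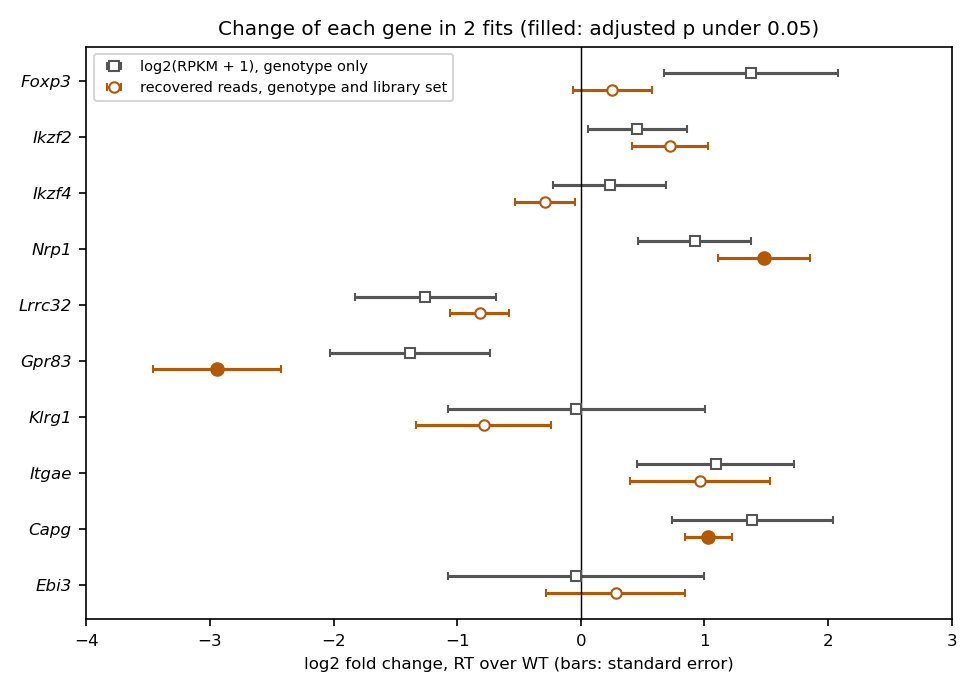
Log2 fold change of each gene, RT over WT, with its standard error, in the planned test (squares) and in the recovered reads of all genes with at least 10 reads (circles). Filled symbols passed an adjusted p of 0.05. Capg and Nrp1 were higher and Gpr83 lower in the recovered reads, and no gene passed in the planned test.

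By level per gene length (RPKM), Capg ranked first of the 10 in RT1, RT2 and all 4 WT libraries, and Foxp3 ranked first in RT3 only, by 179.3 against 178.8 RPKM. Foxp3, Ikzf2, Nrp1 and Capg were detected in every library, while 3 genes in RT2, 2 in RT3 and 2 in WT3 had no read. Together the 10 genes held 1547, 1058 and 1991 RPM in RT1 to RT3, against 1236, 703, 735 and 789 RPM in WT1 to WT4. RT2 thus lay below WT1, and the RT1 total came mostly from Ikzf2 and Nrp1 while that of RT3 came mostly from Foxp3 and Capg. The genes whose log2(RPKM + 1) most resembled that of Foxp3 over the 7 libraries, of 5773 ranked, were Tmem30a (Pearson r = 0.992), Smarca5 (0.989) and Cbx3 (0.989). All 7 libraries enter these values, and in all of these genes the shallow libraries were above the deep ones, so the likeness includes the library sets. Among the members the same r was 0.918 for Capg, 0.817 for Itgae, 0.439 for Ikzf2 and 0.355 for Nrp1.

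Other genes of the regulatory programme were taken from lists. Of 18 receptors and effector molecules tested in the stricter recovered-read fit, 10 were higher in RT, 1 was lower and 7 were not called, with a median log2 fold change of 1.14, against -0.03 over all 5871 genes, of which 9.11% were higher and 7.90% lower. Activated helper T cells also carry many of these receptors, so the list is not specific to regulatory T cells. Ctla4, the inhibitory receptor that competes with CD28, stood at 253, 1204 and 1121 RPM in RT1 to RT3, against 133, 73.2, 267 and 353 RPM in WT1 to WT4. Within each library set its RT values were above its WT values, and it rose by 1.52 ± 0.25 in log2 units (adjusted p = 0.00597, limma voom). Tigit, an inhibitory receptor that binds CD155, rose by 1.92 ± 0.30, and Ccr8, a chemokine receptor of tissue regulatory T cells, by 2.43 ± 0.30 (limma voom adjusted p = 0.00474 and 0.00194). The other genes called higher were Tnfrsf4, Tnfrsf1b, Izumo1r, Icos, Entpd1, Nt5e and Itgb8. In the fit over 13183 genes 7 of the list were higher, and Izumo1r, Nt5e and Entpd1 were no longer called (limma voom adjusted p = 0.0729, 0.0588 and 0.109). Entpd1 also turned with the fit, at 1.29 in the stricter fit, against -0.30 in the planned test and -1.38 in the shallow libraries alone. Il2ra, the interleukin 2 receptor alpha chain that regulatory T cells carry constantly, went the other way. It was at 25.3, 41.5 and 26.9 RPM in RT1 to RT3, against 96.3, 96.9, 19.1 and 46.4 RPM in WT1 to WT4. The fall, -1.85 ± 0.22 (limma voom adjusted p = 0.00163), was seen in the deep libraries, and the value was 0.091 in the shallow ones, where Il2ra had 2 to 5 reads. In the planned test 0 of the 18 passed, with a median of 1.495.

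Of 18 transcription factors that act on or with Foxp3, 0 were higher, 5 were lower and 13 were not called in the stricter fit, with a median of -0.28. Over all 5871 genes there, 9.11% were higher and 7.90% lower. Of the 5 lower factors, Tcf7 was not called in the fit over 13183 genes (limma voom adjusted p = 0.0612), where 3.45% were lower. The lower ones included Bach2, a repressor that favours the resting state of regulatory T cells, at -2.19 ± 0.21. They also included Foxo1, a direct activator of Foxp3, at -1.62 ± 0.20, Lef1 at -1.86 ± 0.35 and Foxp1 at -1.02 ± 0.19. Their limma voom adjusted p ran from 0.000706 to 0.0105. In the shallow libraries alone Lef1 was -0.55 ± 0.43, Bach2 -2.15 ± 1.44 and Foxo1 -1.35 ± 0.44, none of them called. Foxo1 stood at 62.3 to 145 RPM in RT and 176 to 522 RPM in WT, with no overlap. Of 13183 genes 3.49% likewise lay wholly below in RT. Stat5a, which carries the interleukin 2 signal to Foxp3, was at 125 to 165 RPM in RT and 92.8 to 184 RPM in WT, with a log2 fold change of -0.03 ± 0.15 (0.18 in the planned test). Of the genes kept low in regulatory T cells, Satb1, a chromatin organiser that FOXP3 represses, was at 32.9, 0 and 53.8 RPM in RT1 to RT3, against 456, 777, 239 and 325 RPM in WT1 to WT4. It fell by 4.17 ± 0.35 (limma voom adjusted p = 0.000579). Pde3b, another repressed target, fell by 1.17 ± 0.22, but was -0.47 ± 0.60 and not called in the shallow libraries alone. Il7r was not called at -0.40 ± 0.24 (0.24 in the planned test and 0.70 in the shallow libraries alone), and Il2 was listed at 0 in every library. In the planned test 0 of these 2 lists' genes passed. Without RT1, 0 genes of any list were called in the stricter fit. The log2 fold changes there were 1.90 ± 0.51 for Ctla4, 2.46 ± 0.83 for Tigit and 2.45 ± 1.31 for Ccr8. They were -2.24 ± 1.25 for Bach2, -3.95 ± 1.85 for Satb1, -1.35 ± 0.74 for Foxo1 and -2.21 ± 0.77 for Foxp1. Lef1 and Pde3b were nearer to no change, at -0.54 ± 1.18 and -0.47 ± 0.99, and Il2ra turned, at 0.11 ± 0.85. The shallow libraries alone, which also leave out RT1, called 9 of the receptors and effector molecules higher and Foxp1 and Satb1 lower. The 9 were Ctla4, Tigit, Tnfrsf4, Tnfrsf1b, Icos, Nt5e, Il2rb, Tnfrsf18 and Tnfrsf9. The limma voom adjusted p of these 9, Foxp1 and Satb1 ran from 1.59e-05 to 0.045. In that fit 140 of 5871 genes were higher and 177 lower, and the general T cell genes Cd3e and Cd4 were among those higher.

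**Figure D4:**
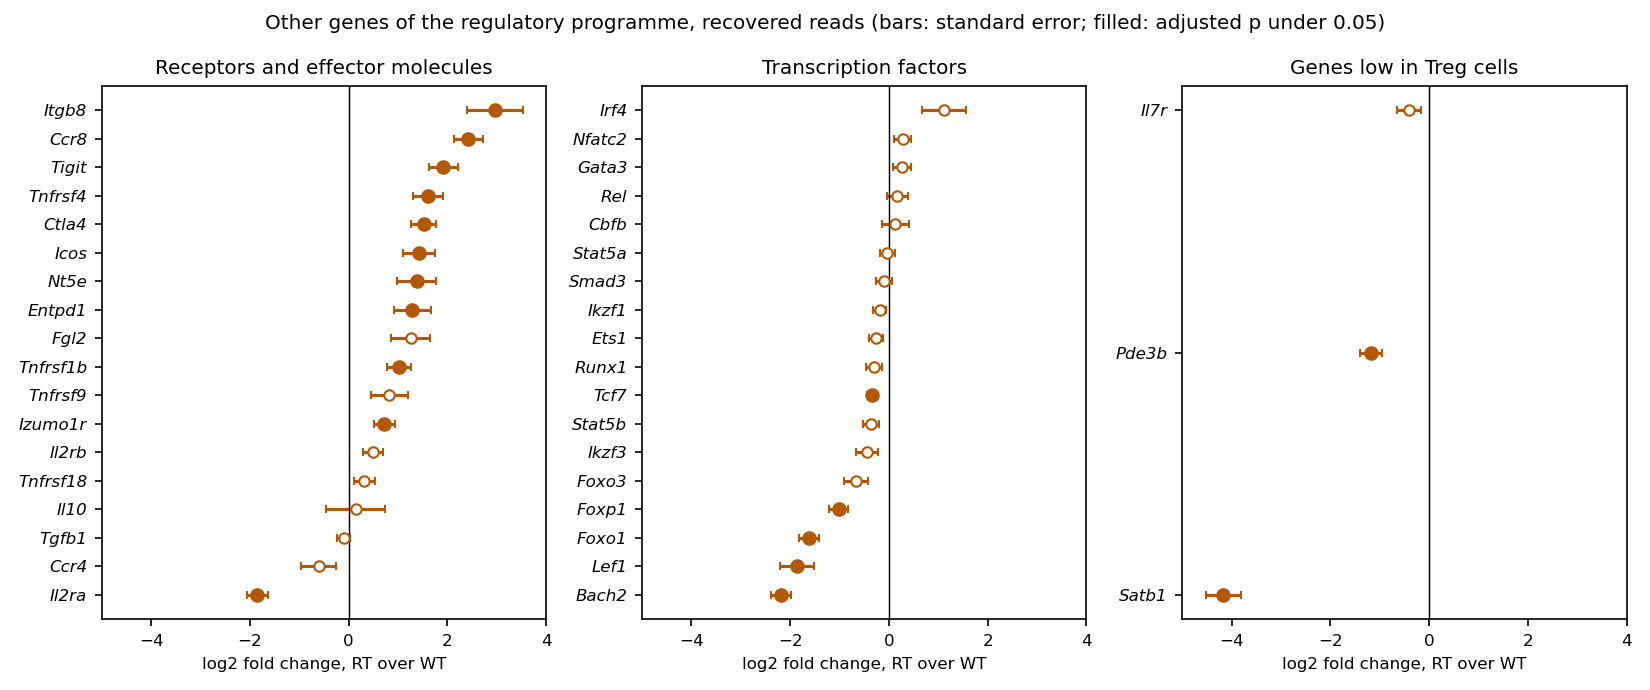
Log2 fold change, RT over WT, with its standard error, for the tested genes of the 3 lists in the stricter recovered-read fit. Filled circles passed an adjusted p of 0.05. Of the receptors and effector molecules 10 lay on the higher side and passed, and of the transcription factors 5 lay on the lower side and passed.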

How the data were processed

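CD4+ cells were sorted from mouse spleen, and libraries were made with an Illumina TruSeq v2 kit from 150 ng of RNA, per the labels' protocols. The authors deposited RPKM values for 19589 gene symbols. Per the submitters' processing notes, reads were placed on mm10. Aligner, counter and annotation: not given in the sources used here. No column of the table was left unused. Groups come from the sample titles. The p-values measure the spread between these samples, with the spread of each gene drawn towards that of all genes. The shallow libraries alone set RT2 and RT3 against WT3 and WT4, so those p-values rest largely on the spread pooled over genes.

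The planned test kept genes that reached 1 RPKM in 3 or more libraries and fitted log2(RPKM + 1) with limma 3.58.1 in R 4.3.3 (trended prior, genotype only, two-sided, Benjamini-Hochberg, threshold 0.05). Fold changes on that scale understate low genes. An RPKM value times length and library total gives reads. Of values under 100 reads, 78.9% to 83.8% per library came out whole within 0.01 reads when GENCODE M21 exon lengths were used. Of 13859 genes above 0, 13049 gave whole reads with 1 length (tolerance 0.003), 10252 with the GENCODE length and 2797 with 1 other length. The remaining 810 needed different lengths in the deep and shallow libraries. Where a gene has few values above 0, many lengths fit, so matches at other lengths are weak evidence. Recovered reads were fitted with limma voom, with genotype and library set, over genes with 10 or more reads in the shallow libraries (5871 genes, the stricter fit) or in all libraries (13183 genes). The second filter and the interaction were added after seeing the data. WT3 and WT4 differed least of all pairs compared, but beyond sampling noise (chi-square test, 1.25 per degree of freedom, p = 3.21e-16 over 2350 genes), and were kept as 2 samples. Both tests were tried on simulated counts.

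The members, gene lists and tests were chosen with earlier results of these data known. The rule for named genes took the members, Tet2 and Rhoa, up to 4 called genes of each list by smallest p (where none was called, the 2 with the smallest p), and the 3 genes most like Foxp3. Cd3e, Cd4, Stat5a, Il7r, Il2, Xist, overlapping genes and the ratios to Cd4 and Cd3e were chosen after their values were seen. Eomes, Xbp1 and Irf4, taken by the rule, were not called. Gene coordinates are those of GENCODE M21.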

Additional observations from a re-analysis of the deposited data

Results flagged for a closer look

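Over the 20 sets of 4 WT values (10 genes, in RPKM and in RPM), 2 had 1 library far from the others, where chance gives about 1 in 20. Klrg1 was at 11.6 RPKM in WT4, on 2 reads, against 1.38 RPKM in the next library. Ebi3 was at 3.50 RPM in WT1, against 8.80 RPM in the next, WT2. WT3 and WT4 were at 9.55 and 9.28 RPM, on 1 read each, so this gap rests partly on single reads. The chance rate holds for 4 like values, while these sets mix deep and shallow libraries. RPKM and RPM of a gene are also not independent.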

How the results depend on the processing

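The planned test called 4 genes higher and 1 lower in RT, and 0 of the 10 members. A pseudocount of 0.1 or no filter gave 0 and 0, as did the deep libraries alone. Rescaling RPKM gave 7 higher and 5 lower, a library set term 21 and 5, and the shallow libraries alone 5 and 38. Leaving out 1 library gave 0 to 16 higher and 0 to 5 lower, and 0 members in either direction. Recovered reads gave 535 higher and 464 lower (left out 0 to 719 and 0 to 617), with 2 members higher (0 to 4). Among them the deep libraries alone gave 123 and 50, the shallow ones 140 and 177 (2 members higher), and quantile normalization 646 and 700 (2 members higher). With the filter on all libraries the counts were 770 and 455 (0 to 978 and 0 to 612), with 2 members higher (0 to 4) and 1 lower (0 to 2).

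Deviations of same-numbered libraries correlated at 0.43, -0.18 and 0.18. RT1 also correlated at 0.34 with WT2, and RT3 at 0.18 with WT4. The sign followed the library sets, positive within a set and negative between sets. These values therefore cannot tell whether the replicate numbers pair the samples. The replicate block gave 0 genes higher and 0 lower in the planned test, and 531 and 459 in recovered reads, with 2 members higher.

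Of 280 member values over 34 alternatives, 219 kept direction and were not called, 36 kept it and were called, and 25 turned. The 25 lie in Ikzf4, Klrg1 and Ebi3. List genes named in the text that also differed in sign between fits included Il2ra (below), Il7r, Stat5a, Entpd1, Adgre1 and Cd68. Cd3e, Cd4, Eomes, Xbp1 and Irf4 did so too. Ikzf4 was -0.25 in the deep libraries alone and -0.29 in recovered reads (-0.38 to -0.07 with 1 library left out, but 0.66 without RT1). Klrg1 was 0.69 under the replicate block, 0.33 to 0.69 without RT1, RT2 or WT4 but -1.13 without RT3, and 0.11 in recovered reads without RT1. Ebi3 was 0.25 in the deep libraries, 0.16 under the block, 0.12 to 1.15 without RT1, RT3, WT3 or WT4 but -1.38 without RT2, and 0.28 in recovered reads (0.24 to 0.76 without RT2, RT3, WT2, WT3 or WT4). Il2ra was 0.17 in the shallow libraries, 0.091 there in recovered reads, and 0.11 and 0.13 in the recovered-read fits without RT1. It was -1.90 without RT2, and -2.04 at the lowest over all alternatives. The cause was not tested. Shallow libraries limit every member but Foxp3, Ikzf2, Nrp1 and Capg to 10 reads or fewer each.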
